A study of Mus musculus with 2 samples.

Results

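In embryonic kidney, the 6 miRNA genes of the mouse Hox clusters held 25.2% ± 0.157 of the reads placed uniquely on miRNA genes (SD, n = 2 replicates). They are Mir10a, Mir10b, Mir196a-1, Mir196a-2, Mir196b and Mir615, chosen by gene name, and they make up 6 of the 1973 miRNA genes counted. Small RNA libraries of less than 30 nucleotides had been made from kidneys of B6NCrl mouse embryos at 14.5 days, in 1 group of 2 biological replicates, with 2 kidneys in each sample. The labels name no treatment and no allele. They give a different collection day for each replicate, describe a single pup in one field and pooled sexes in another, and carry the same donor identifier for both, so the number of embryos in a sample cannot be told from them.

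Hox genes encode transcription factors that give positions along the body axis their identity, and their order along each cluster follows the order in which they are expressed from head to tail. The miRNAs between them are transcribed in the same direction as their Hox neighbours and repress messenger RNAs through short complementary sites, Hox messages among them. In mice, miR-196 directs cleavage of the Hoxb8 message, and in human cells miR-10b represses HOXD10. In the kidney, the Hox11 genes are needed for the organ to form, and Hoxb7 is active in the ureteric bud, the epithelial tube whose branching builds the collecting ducts.

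The mature sequences show which of these genes can be told apart by their reads. RefSeq (GRCm38.p6) has mature entries for 6 of 6 genes, 11 distinct sequences in all, and capitals mark the seed, bases 2 to 8, by which a miRNA finds its targets. The first pair shares the seed ACCCUGU, the second pair shares AGGUAGU, and the miR-615 arms share theirs with no other of the 1679 mouse mature sequences in that table.
miR-10a-5p: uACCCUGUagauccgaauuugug
miR-10b-5p: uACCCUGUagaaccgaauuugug
miR-196a-5p: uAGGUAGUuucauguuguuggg
miR-196b-5p: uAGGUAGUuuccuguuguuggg
miR-615-5p: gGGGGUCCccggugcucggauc
miR-615-3p: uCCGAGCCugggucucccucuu

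Counted from 1 at the 5′ end, miR-10b-5p differs from miR-10a-5p by U12A alone, and miR-196b-5p differs from miR-196a-5p by A12C alone. Both differences lie outside the seed. The opposite arms diverge more, with 19 of 22 bases identical between miR-10a-3p and miR-10b-3p and 16 of 22 between miR-196a-2-3p and miR-196b-3p. The deposited counts are per gene and do not separate the arms.

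The hairpins of Mir196a-1 and Mir196a-2 are shown because both contain the whole of miR-196a-5p, in capitals, which is the longest run they share.
Mir196a-1: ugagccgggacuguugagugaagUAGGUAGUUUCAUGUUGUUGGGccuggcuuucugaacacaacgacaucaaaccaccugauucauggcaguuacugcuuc
Mir196a-2: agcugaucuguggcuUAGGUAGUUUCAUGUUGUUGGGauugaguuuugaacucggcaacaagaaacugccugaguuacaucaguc

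The run shared by these hairpins is 22 bases long, the length of the mature miRNA, and the bases on either side of it differ. A read of miR-196a-5p with no further base maps equally to both genes. The files set multimapping reads aside in a tally of their own, 28.3% of all reads in replicate 1 and 27.5% in replicate 2. The counts of Mir196a-1 and Mir196a-2 leave such reads out, and how many belonged to them cannot be told. Compared position by position from the 5′ end, with no shift, their own 3p arms have 5 of 22 bases in common. An alignment that allowed a shift would match more bases. The other 4 genes shared no run longer than 15 bases with any other annotated miRNA hairpin, which was the run common to Mir10a and Mir10b.

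The 6 genes are spread over all 4 Hox clusters. Mir10a (ENSMUSG00000065519.1) lies at chr11:96317165-96317274 on the plus strand of mm10, between Hoxb5 and Hoxb4, with 992 bases to the start of Hoxb4 and no Hox transcript over it. Mir10b (ENSMUSG00000065500.2, chr2:74726070-74726137, plus strand) lies in introns of 2 Hoxd4 transcripts and 1 Hoxd3 transcript. Mir196b (ENSMUSG00000065443.1, chr6:52230081-52230165, minus strand) lies 1031 bases past the end of Hoxa10, in an exon of 2 Hoxa9 transcripts and in an intron of 1.

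Mir196a-1 (ENSMUSG00000065546.1, chr11:96265164-96265265, plus strand) is intergenic, 6191 bases before Hoxb9 and 67716 bases after Hoxb13. Mir196a-2 (ENSMUSG00000065488.1, chr15:102973350-102973434, plus strand) lies between Hoxc10 and Hoxc9, 1456 bases after Hoxc10, and inside an intron of 1 Hoxc5 transcript. Mir615 (ENSMUSG00000076010.1, chr15:103014910-103015001, plus strand) lies in introns of 2 Hoxc5 transcripts. The miR-10 genes are thus found beside the group 4 Hox genes, and the miR-196 genes just before or within group 9.

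**Figure D1:**
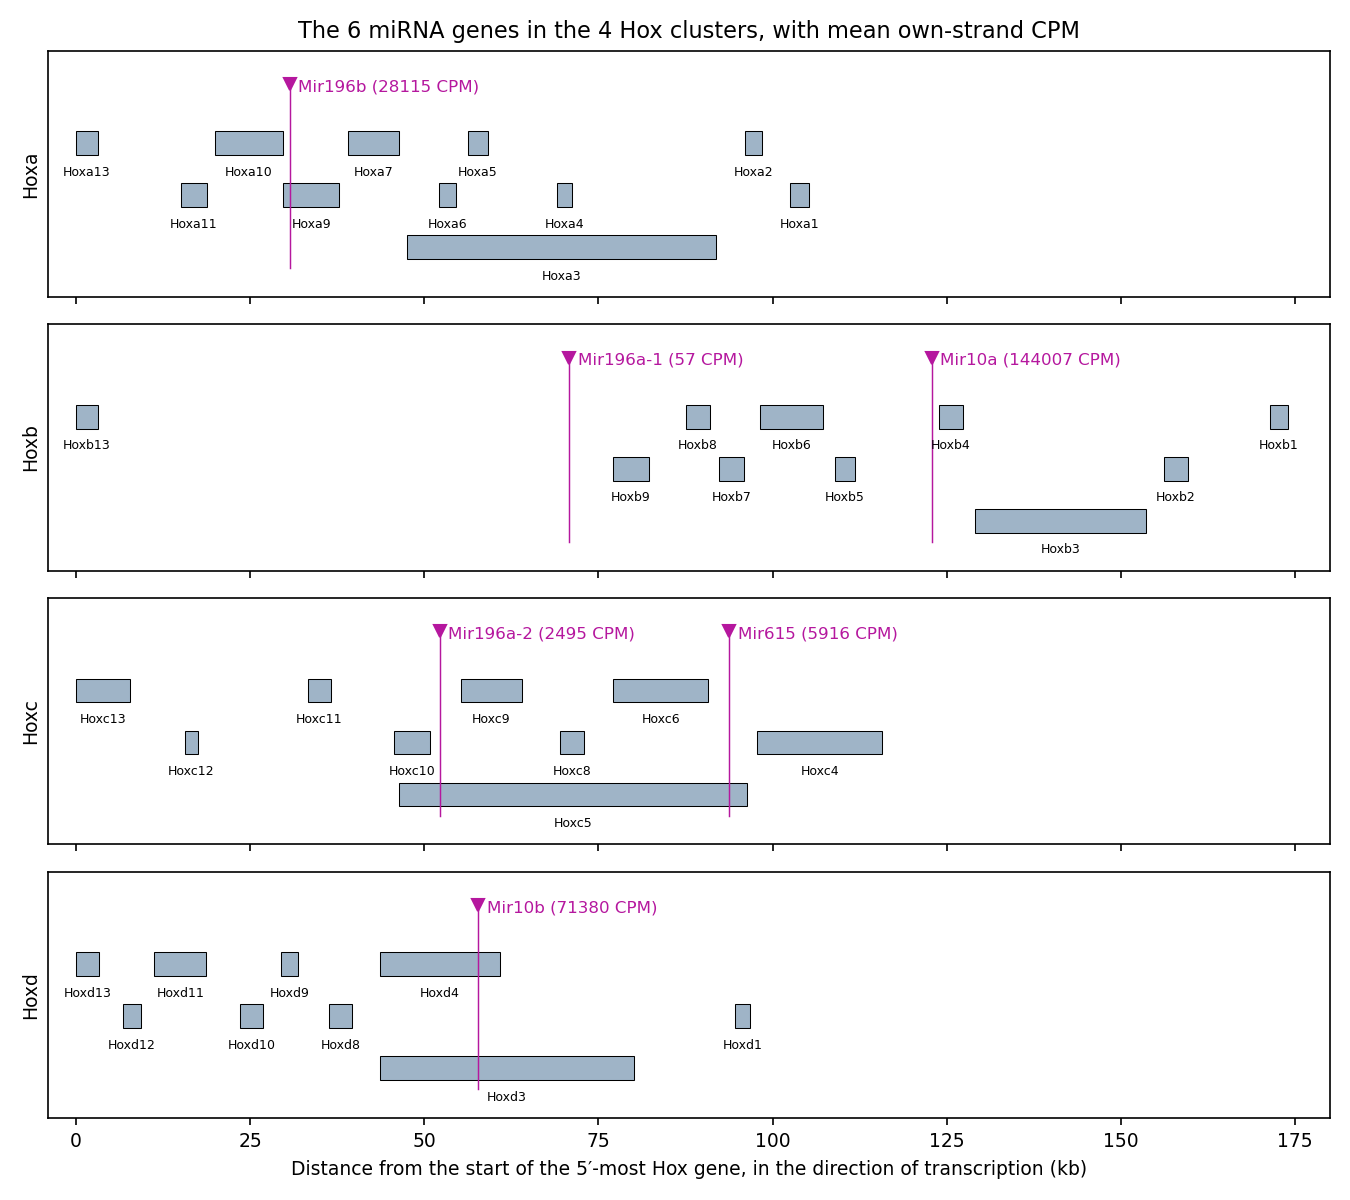
Map of the 4 Hox clusters drawn to scale. The horizontal axis is the distance in kb from the start of the 5′-most Hox gene in the direction of transcription, boxes are protein-coding Hox genes (rows only separate overlapping boxes), and triangles are the miRNA genes with their mean own-strand CPM over 2 replicates. In the Hoxb cluster Mir10a, at 144007 CPM, lies on the 3′ side of Mir196a-1, at 57.1 CPM, with 5 Hox genes between them.

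The libraries differed in depth. Replicate 1 had 5202588 and replicate 2 had 3683978 counts on the strand of miRNA genes. A floor of 3 counts, used as a rough upper limit for a count of 0, corresponds to 0.577 and 0.814 CPM (counts per 1000000 own-strand counts). Detection required at least 10 counts in both libraries, and 345 genes passed, all 6 Hox-cluster genes among them. The 5 miR-200 genes of epithelium summed to 26800 and 23488 CPM in replicates 1 and 2, and Mir126a of endothelium had 45180 and 47759 CPM. The 4 tubule miRNA genes, which mark more mature nephrons, summed to 353 and 490 CPM with 3 detected. Mir194-1 and Mir194-2 of that list share a mature sequence, whose multimapping reads are left out of the sum. Stromal markers summed to 24724 and 25343 CPM. The erythroid genes Mir451a and Mir144 summed to 154 and 73.0 CPM. Of the leukocyte list Mir223 alone had counts, at 266 and 268 CPM, with Mir142b at 0, and of the muscle list Mir206 alone, at 72.3 and 53.5 CPM, with Mir1a-1, Mir133a-1 and Mir133a-2 at 0. The hepatocyte marker Mir122 had 56.3 and 1074 CPM. The 5 neural genes with a row of counts summed to 1.35 and 1.90 CPM, with Mir124a-1, Mir124a-2 and Mir124a-3 at 0 in both libraries; these genes share a mature sequence, as do Mir133a-1 and Mir133a-2, so its reads would be multimapping. The Mir9 and Mir1a genes likewise share mature sequences. A low sum or a level of 0 for such genes does not measure their tissue, and neither does the 0 of Mir142b. Confidence intervals here are exact Clopper-Pearson intervals at 95% and cover counting error only, since PCR copies were not removed by molecular identifiers. The SD is between 2 samples and may be partly technical.

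The miR-10 pair carried most of the uniquely placed reads of the Hox-cluster miRNA genes. Mir10a had 145447 CPM in replicate 1 and 142567 CPM in replicate 2, the most uniquely placed reads of any miRNA gene in both. Its mean was 144007 ± 2037 CPM (SD, n = 2). Multimapping reads, 28.3% and 27.5% of all reads in replicates 1 and 2, take no part in ranks or shares here. Mir10b had 72257 and 70503 CPM, a mean of 71380 ± 1240 CPM, at rank 3 in both libraries. The levels of the genes did not overlap, and the pair held 21.5% ± 0.328 of own-strand counts, 85.5% ± 1.83 of the counts of the 6 genes. In a single library the shares of Mir10a were 14.5% (interval 14.5 to 14.6) and 14.3% (14.2 to 14.3).

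Their ratio hardly moved between the libraries. Mir10a exceeded Mir10b 2.01-fold in replicate 1 (interval 2.01 to 2.02) and 2.02-fold in replicate 2 (2.01 to 2.03). The mean log2 ratio was 1.01 ± 0.0047 over both libraries, the smallest SD of the 5 ratios compared. Reads of the 5p arms are told apart by the base of U12A alone, and the part of misplaced reads in this ratio was not tested.

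Mir196b had by far the most uniquely placed reads of the miR-196 genes, in counts that leave out multimapping reads of miR-196a-5p. It had 24590 CPM in replicate 1 and 31641 CPM in replicate 2, a mean of 28115 ± 4986 CPM (SD, n = 2), at ranks 12 and 9. Its coefficient of variation of 17.7% was the largest of the 6 genes, the other 5 lying between 0.915% and 5.05%. The 2 values did not overlap within counting error, at 24457 to 24723 and 31462 to 31820 CPM.

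Mir196a-2, which carries the same miR-196a-5p as Mir196a-1, had 2406 and 2584 CPM, a mean of 2495 ± 126 CPM, at rank 56 in each library. Mir196a-1 had 57.5 and 56.7 CPM from 299 and 209 counts, with intervals of 51.1 to 64.4 and 49.3 to 65.0 CPM, and ranked 208th and 205th. It was the lowest of the 6 genes in both libraries, by counts that leave out multimapping reads of miR-196a-5p. Counting error alone is large for it, and its 2 values lie within each other's interval.

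Within the family, Mir196b exceeded Mir196a-2 with a log2 ratio of 3.48 ± 0.18 and Mir196a-1 with one of 8.93 ± 0.27 (SD, n = 2). The log2 ratio of Mir196a-2 over Mir196a-1 was 5.45 ± 0.09, which is 41.9-fold in replicate 1 (interval 37.3 to 47.1) and 45.5-fold in replicate 2 (39.7 to 52.5). These are ratios of reads placed on 1 gene alone. Since full-length miR-196a-5p maps to both copies, they do not measure how much miR-196a-5p each gene makes, nor its level beside miR-196b-5p. The 3 genes together held 3.07% ± 0.511 of own-strand counts. The miR-10 pair was 8.05-fold higher than this sum in replicate 1 and 6.22-fold higher in replicate 2. That sum also leaves out multimapping reads of miR-196a-5p, so these folds hold for uniquely placed reads alone.

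**Figure D2:**
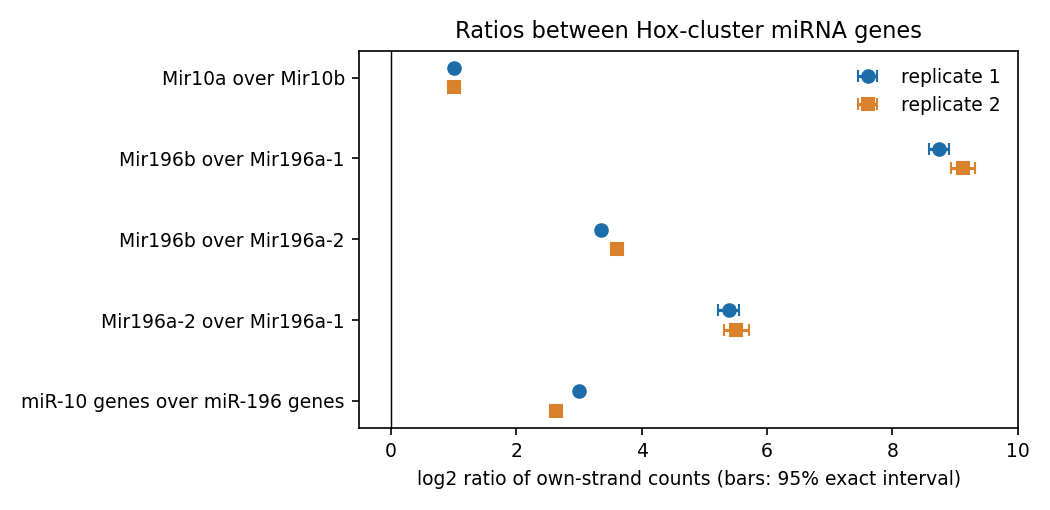
Log2 ratios of own-strand counts between Hox-cluster miRNA genes. Points are the 2 replicates and bars are exact 95% intervals of counting error, which are narrower than the points for the abundant pairs. Mir10a over Mir10b was 1.01 and 1.02 in replicates 1 and 2, while Mir196b over Mir196a-1 was 8.74 and 9.12.

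Mir615, from the Hoxc cluster, had 6106 and 5727 CPM, a mean of 5916 ± 268 CPM (SD, n = 2), at ranks 33 and 30. It held 0.592% ± 0.0268 of own-strand counts. Its hairpin is the richest of the 6 in G and C, at 69.6%, against 39.7% to 48.0% for the others. Its neighbour Mir196a-2, in the same cluster, was lower, and Mir615 exceeded it 2.54-fold in replicate 1 and 2.22-fold in replicate 2. This holds for uniquely placed reads alone, since the counts of Mir196a-2 leave out multimapping reads of miR-196a-5p.

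By uniquely placed reads, the 6 genes stood in the order Mir10a, Mir10b, Mir196b, Mir615, Mir196a-2, Mir196a-1, the same in both libraries. The places of Mir196a-2 and Mir196a-1 rest on counts without the multimapping reads of miR-196a-5p, so the order does not rank their true levels. Each gene was above the next by more than the replicate spread, with the closest step between Mir196b and Mir615, where the difference of 22199 CPM was 4.45 times the larger SD; this pair was added after the values were seen. The widest step beside its spread was between Mir10a and Mir10b, at 35.7 times. With 2 samples these SDs are themselves uncertain, and no test between genes was run.

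Members of 1 cluster did not have like numbers of uniquely placed reads. In the Hoxb cluster, Mir10a exceeded Mir196a-1 2531-fold in replicate 1 and 2513-fold in replicate 2, and here too reads of miR-196a-5p are left out. Summed by cluster, Hoxb held 14.4% ± 0.204 of own-strand counts, Hoxd 7.14% ± 0.124, Hoxa 2.81% ± 0.499 and Hoxc 0.841% ± 0.0142 (SD, n = 2). By these sums Hoxb and Hoxd lead through the miR-10 genes, and Hoxa and Hoxc hold none. The sums of Hoxb and Hoxc leave out multimapping reads of miR-196a-5p, so the order of the clusters does not rank their true levels.

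**Figure D3:**
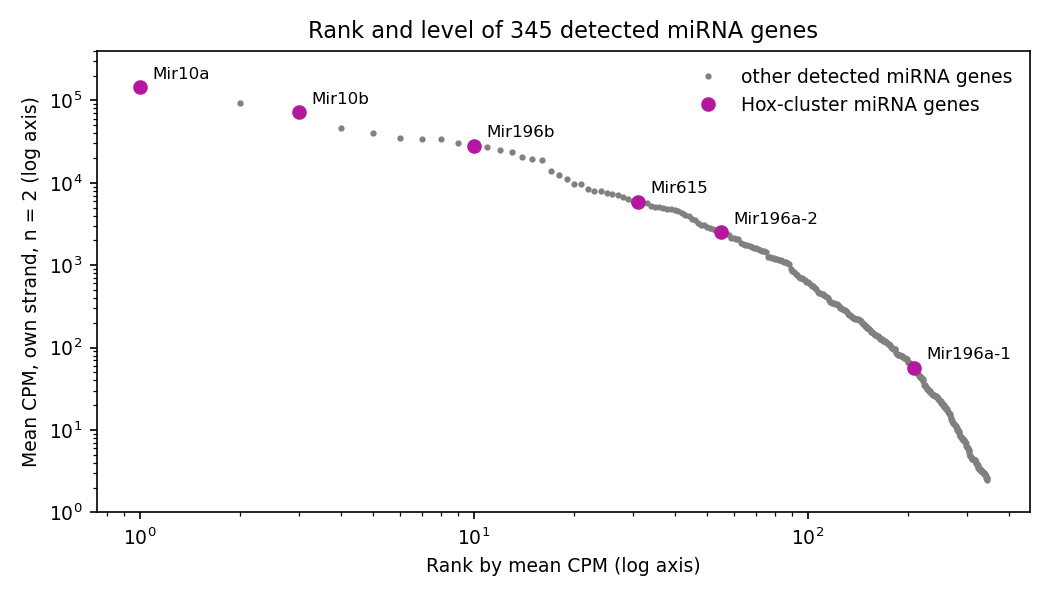
Mean own-strand CPM against rank for the 345 detected miRNA genes, both on log axes. Hox-cluster genes are coloured and named. They hold ranks 1, 3, 10, 31, 55 and 208 by mean CPM, and so span the top of the curve and its middle.

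Nearly all reads of these genes lay on the strand of the gene. Of the counts on both strands, 3 in replicate 1 and 2 in replicate 2 were on the opposite strand, all at Mir10a, which is 0.000230% (interval 4.74e-05 to 0.000672) and 0.000215% (2.6e-05 to 0.000775). Over all miRNA genes, 1.93% and 1.80% of counts were on the opposite strand. No annotated gene overlaps any of the 6 on the other strand.

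Between the libraries, 5 of the 6 genes differed in a two-sided exact binomial test with Benjamini-Hochberg adjustment over all 345 detected genes. The same was true of 53.9% of all detected genes, so the count says little of the Hox-cluster genes, which are deep enough for small differences to pass. Mir196b and Mir196a-2 were higher in replicate 2, as were 26.7% of detected genes, and Mir10a, Mir10b and Mir615 were lower, as were 27.2%. No Hox-cluster gene differed by a log2 ratio of 1 or more, against 3.19% of detected genes. The test takes counting error alone and compares 2 libraries of 1 group.

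In size, Mir196b stood out among the 6, at 0.37 for replicate 2 over replicate 1 on the log2 scale (interval 0.36 to 0.38). In absolute size, 69.9% of detected genes, itself included, had a log2 ratio no larger. The other ratios were 0.11 for Mir196a-2, -0.03 for Mir10a, -0.03 for Mir10b, -0.09 for Mir615 and -0.02 for Mir196a-1, the only one that did not pass (adjusted p 0.973, exact binomial test). The median size over the 6 was 0.06, beside 0.24 over all detected genes. These medians are not at like depth, since the median level was 17016 CPM for the 6 and 114 CPM for all detected genes. When edgeR's exact test was given a coefficient of variation of 0.2, an assumed value, it called 0 of the 6 (adjusted p 1 for each) and 2 of 345 genes. Mir122, the hepatocyte marker above, was also higher in replicate 2, while the erythroid sum was lower there, at 73.0 CPM against 154 CPM in replicate 1. The part of other tissue in the difference of Mir196b was not tested. In whole tissue, fewer cells of a type and less RNA per cell cannot be told apart.

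**Figure D4:**
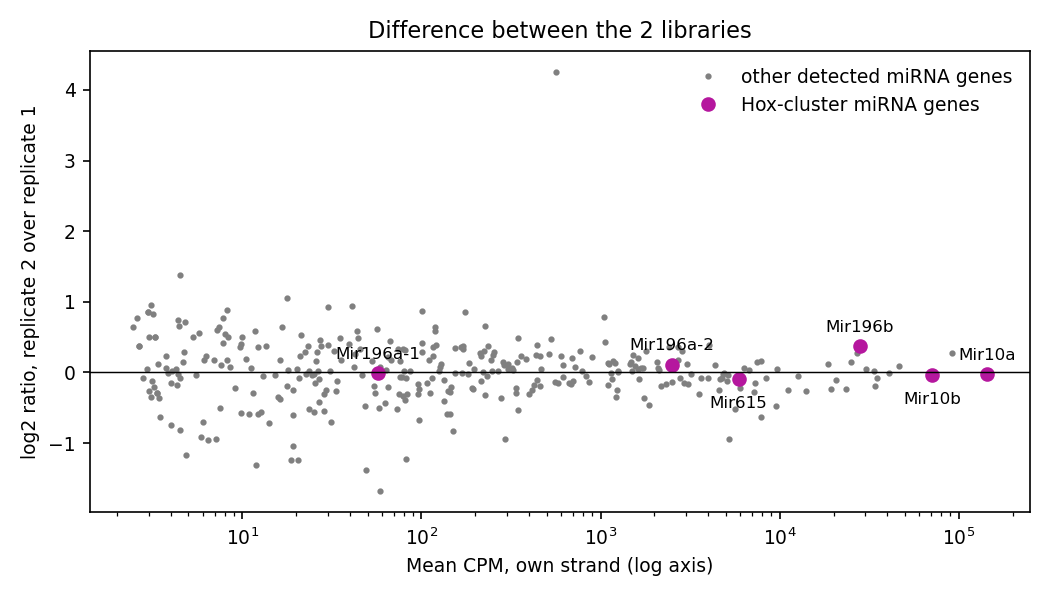
Log2 ratio of replicate 2 over replicate 1 against mean own-strand CPM (log axis) for the 345 detected miRNA genes, with Hox-cluster genes coloured. Mir10a, Mir10b, Mir615, Mir196a-2 and Mir196a-1 lie between -0.09 and 0.11 and Mir196b lies at 0.37. The point at 4.26 is Mir122.

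Outside the Hox clusters, the miR-10 pair has relatives in Mir99a, Mir99b and Mir100, and more distant ones in Mir125a, Mir125b-1 and Mir125b-2. The 5p arms of the miR-99 and miR-100 genes follow miR-10a-5p here. Capitals mark the longest run shared with it, which begins inside the seed, at base 7 of miR-10a-5p and base 6 of the others, and the longest of the runs is marked in miR-10a-5p.
miR-10a-5p: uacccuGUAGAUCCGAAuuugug
miR-100-5p: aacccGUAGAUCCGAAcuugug
miR-99a-5p: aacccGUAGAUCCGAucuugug
miR-99b-5p: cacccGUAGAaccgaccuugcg

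The run shared with miR-10a-5p is 11 bases in miR-100-5p, 10 in miR-99a-5p and 5 in miR-99b-5p. With miR-10b-5p, which has A at base 12, miR-99b-5p shares a longer run. All 3 of these sequences have the seed ACCCGUA, against ACCCUGU in the miR-10 pair. The 6 Hox-cluster genes held 25.1% of own-strand counts in replicate 1 and 25.3% in replicate 2, against 6.79% and 6.28% for these 6 relatives. Mir99a led them at 34825 ± 1501 CPM (SD, n = 2), above Mir196b and below Mir10b. Mir99b had 19314 ± 2237 CPM and Mir100 had 6329 ± 171 CPM, near Mir615. By uniquely placed reads, the 3 miR-125 genes held 0.487% ± 0.000447, led by Mir125a at 3998 ± 149 CPM. Mir125b-1 and Mir125b-2 share the mature miR-125b-5p, so its reads can be multimapping and are then left out. The level of miR-125b-5p and the full share of the relatives are therefore not measured. In the exact binomial test between libraries, all 6 relatives passed, 3 higher and 3 lower in replicate 2, where 53.9% of all detected genes passed. None of them had a log2 ratio of 1 or more, and 0 of the 6 passed in edgeR's exact test at a coefficient of variation of 0.2.

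**Figure D5:**
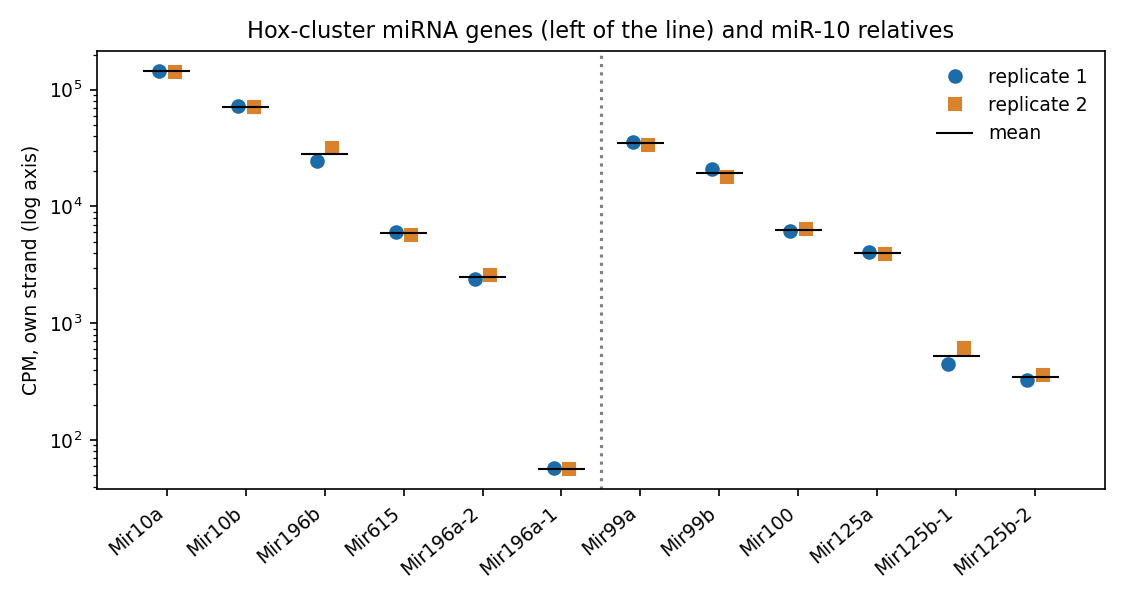
Own-strand CPM (log axis) of the 6 Hox-cluster miRNA genes, left of the dotted line, and of 6 miR-10 relatives. Circles are replicate 1, squares replicate 2 and bars their mean. Mir10a and Mir10b lie above every relative.

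Genes outside the list with the most similar level were found by the distance in log2(CPM + 1) over the 2 libraries. Mir335, from an intron of the imprinted gene Mest, was nearest to both Mir10a (distance 0.95) and Mir10b (0.56), with 83348 and 100914 CPM, so it lay between them in both libraries. Both differed from it by more than its SD of 12421 CPM. Mir26b was nearest to Mir196b, at 27090 ± 3506 CPM, and Mir98 of the let-7 family to Mir615, at 5868 ± 279 CPM. Mir1983 was nearest to Mir196a-2, at 2694 ± 225 CPM, and Mir19a of the miR-17 cluster to Mir196a-1, at 58.6 ± 1.92 CPM. In these 4 pairs the means differed by less than the larger SD. With 2 libraries this measures level, not a shared pattern.

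One sequence in the same cluster as Mir196a-1 and Mir10a pairs almost wholly with miR-196a-5p. Among transcripts of 21877 protein-coding genes, Hoxb8 alone held a stretch with at least 20 of 22 bases complementary to it, a share of 0.00457%. The stretch lies in the 3′ UTR of Hoxb8 at chr11:96284888-96284909 (mm10, plus strand), 19622 bases after Mir196a-1, and capitals mark the bases complementary to miR-196a-5p.
Hoxb8 site: CCCAACAACAUGAAACUgCCUA

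Against the full complement it differs by A18G, counted from its 5′ end, and this base faces the seed. The complement of miR-196a-5p was searched in the sense strand of annotated transcripts, allowing 2 mismatches and no gaps. The match is a description of sequence, since the libraries hold no messenger RNA.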

How the data were processed

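The authors deposited raw read counts per miRNA gene for each library in 3 columns, for both strands, the gene's strand and the opposite strand. Per the deposited file descriptions, the build was mm10 and the annotation GENCODE M4. The aligner and counter were not given in the sources used here. The 4 tally rows that name no gene (unmapped, multimapping, no feature, ambiguous) were left out of totals and tests. Unmapped reads were 16.8% and 14.1% of reads, and reads on no feature 4.06% and 2.91%.

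Own-strand counts were used throughout and scaled to CPM by their total. Symbols and loci were taken from GENCODE M21, also on mm10, where 1894 of 1973 identifiers matched without version. Printed miRNA sequences came from RefSeq, and hairpin comparisons, GC content and the Hoxb8 site from GENCODE M21 transcripts. No contrast between groups exists, which leaves no quasi-likelihood fit to make. The libraries were compared by exact binomial tests on TMM-scaled totals, with calls at an adjusted p below 0.05 across 345 genes. The 6 genes, the lists and the ratios were chosen with earlier results of these data known. Named genes were the 6 genes, the 6 relatives, the nearest gene to each, neighbouring Hox genes, and Hoxb8 and Hoxd10 as targets. Another 4 ratios, between neighbours within a cluster or in the order of levels, were added after the data were seen. The binomial test was tried on simulated data with known changes and counting error alone, which is what the test assumes. Such data cannot show how the test does under further spread between libraries. Tests used scipy 1.17.1 under Python 3.11.15, with pandas 2.3.3. TMM factors came from edgeR 4.0.16, and size factors, an alternative, from DESeq2 1.42.0, in R 4.3.3.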

Additional observations from a re-analysis of the deposited data

How the results depend on the processing

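The share held by the 6 genes was 25.2% of own-strand counts. It was 24.7% with unstranded counts, 15.5% with all mapped reads as the denominator, and 12.6% with Mir10a taken out of both the genes and the total. It ranged from 25.1% to 25.3% with either replicate left out. The 5 log2 ratios moved by no more than their SD with unstranded counts or with 0.5 or 10 counts added. With either replicate left out they ranged from 1.01 to 1.02 for Mir10a over Mir10b, 8.74 to 9.12 for Mir196b over Mir196a-1, 3.35 to 3.61 for Mir196b over Mir196a-2, 5.39 to 5.51 for Mir196a-2 over Mir196a-1 and 2.64 to 3.01 for miR-10 over miR-196 genes, which is the spread of the replicates themselves. The order of the 6 genes was the same with unstranded counts and in each replicate. Between libraries, 186 genes passed with counting error alone and 2 passed in edgeR's exact test at a coefficient of variation set to 0.2. In that test 0 of the 6 genes passed, against 5. Of 11 genes with a log2 ratio of at least 1, 5 were left with a minimum of 50 counts, where fewer genes were tested, and 2 in the edgeR test. Other scalings and minimums kept 5 of the 6 genes called. No paired analysis was possible because there is 1 group. Reads that mapped to several places limit Mir196a-1 and Mir196a-2 most.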
